A study of Mus musculus with 4 samples.

Results

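The milk casein genes Csn1s2a and Csn2 were taken from the list of changed ovary genes that the authors deposited, as the rows carrying those 2 gene names. They are 2 of the 854 genes listed in the ovary and 2 of the 1696 distinct genes listed in the ovary or the uterus. They were chosen by their log2 fold changes in this list, which are therefore a description of the 2 genes and were not tested.

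The study asked how low oxygen before implantation alters the reproductive tract of pregnant mice. Its 4 groups were hypoxia ovary, normoxia ovary, hypoxia uterus and normoxia uterus. All were collected at embryonic day 3.5, and the hypoxia animals were placed in low oxygen 72 hours after fertilization. RNA of 3 samples was pooled per group and sequenced as 1 library from polyadenylated RNA, so there is no spread between animals and no difference has a replicate check. The labels state no strain, age or oxygen level. The lists hold a log2 fold change per gene and only genes at or past an absolute value of 2. They do not say which condition was divided by which, and positive values are read here as higher in hypoxia. Sequencing depth per library is not given in these sources. Ovarian identity could not be checked on markers because the lists hold changed genes alone.

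Caseins are the main phosphoproteins of milk. The alpha-S1, alpha-S2 and beta caseins bind calcium phosphate, and kappa casein caps the resulting micelles. In mammary epithelium their genes are switched on in pregnancy and lactation by prolactin, whose receptor signals through the kinase JAK2 and the transcription factor STAT5. The ovary also has prolactin receptors, and in rodents prolactin maintains the corpus luteum, the gland that makes progesterone in early pregnancy.

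Csn1s2a, which encodes an alpha-S2 casein, had a log2 fold change of 4.55 in the authors' deposited table, a ratio of 23.4. Csn2, which encodes beta casein, had 4.10 in the authors' deposited table, a ratio of 17.1. The other 3 mouse casein genes were not listed in the ovary. These were Csn1s1, which encodes alpha-S1 casein, Csn1s2b, which encodes a second alpha-S2 casein, and Csn3, which encodes kappa casein. None of the 5 casein genes was listed in the uterus (0 of 5). For background, 433 genes were listed as higher in the ovary, 0.781% of the 55450 genes of the GENCODE M21 annotation. Among protein-coding genes, 99 were listed as higher, which is 0.451% of those annotated. In either direction, 1.54% of annotated genes were listed in the ovary and 1.63% in the uterus.

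The deposited ratios carry more than their size. Once divided by a factor of 0.952 common to the ovary list, each of its ratios is a ratio of 2 whole numbers, here called terms. For Csn1s2a the hypoxia term was 123 and the normoxia term 5. For Csn2 the hypoxia term was 18 and the normoxia term 1. The terms are read as read counts with 1 added, which no source states.

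On that reading Csn1s2a had 122 reads in the hypoxia ovary library, with an exact Poisson interval of 101 to 146, and 4 reads in the normoxia ovary library, with an interval of 1.09 to 10.2. These intervals did not overlap, but Csn1s2a was chosen by its ratio between these libraries, so this is no test of a difference. The fold of these reads, adjusted by the shared factor, was 29.0 in hypoxia over normoxia, with an exact Clopper-Pearson interval of 11.1 to 108. Csn1s2a thus had few but countable reads in the normoxia ovary.

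Csn2 had 17 reads in the hypoxia ovary library, with an interval of 9.90 to 27.2, and 0 reads in the normoxia ovary library. A count of 0 allows a limit of 3 counts in 1 library. Against that limit, and with the 17 reads taken as exact, Csn2 was 5.40-fold higher in the hypoxia library. With counting error in both libraries, the exact Clopper-Pearson interval of its log2 fold change began at 1.97 and had no upper end. The deposited value of 4.10 for Csn2 depends on the 1 read added to a count of 0 and is not a bound. With the terms themselves taken as counts, its ratio of 17.1 had an interval of 2.71 to 714, and that of Csn1s2a, 23.4, had 9.77 to 73.4. The intervals of the 2 genes overlapped widely, so these data do not order the 2 genes by the size of their difference. All intervals cover counting error only.

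Terms come in lowest form, so any number that divided both is lost. The next pair that gives the same ratio is 245 reads in hypoxia and 9 in normoxia for Csn1s2a, and 35 in hypoxia and 1 in normoxia for Csn2. The counts above are therefore the smallest that match the deposited values.

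**Figure D1:**
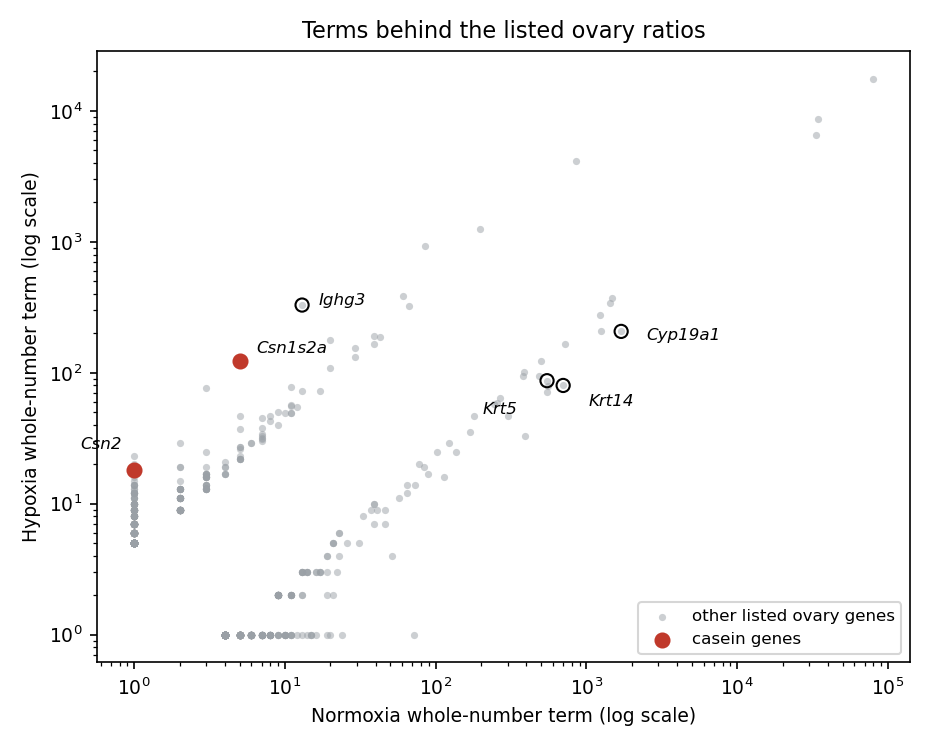
Hypoxia term (vertical axis, log scale) against normoxia term (horizontal axis, log scale) for the 854 listed ovary genes, with 1 grey point per gene, the casein genes in red and 4 other named genes ringed. Csn1s2a stands at 123 and 5, away from the left edge, while Csn2 at 18 and 1 stands on the left edge, where the normoxia term is 1.

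On the smallest counts that match, the 2 listed casein genes differed in level in the hypoxia library. Per kilobase of the longest protein-coding transcript, 920 bases for Csn1s2a and 1329 bases for Csn2, the hypoxia library held 133 reads for Csn1s2a and 12.8 for Csn2. The level of Csn1s2a was 10.4 times that of Csn2, with an interval of 6.22 to 18.4. With all annotated exon bases as the length it was 14.2 times, with an interval of 8.50 to 25.1. In the normoxia library Csn1s2a had 4.35 reads per kilobase, with an interval of 1.18 to 11.1. The limit for Csn2 was 2.26, inside that interval, so the 2 genes are not ordered in normoxia. In the hypoxia ovary Csn1s2a was thus the more abundant casein transcript of the pair under both lengths, provided that no common factor was lost from the terms of either gene.

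Most genes listed as higher in the ovary had small terms. Of the 433, 302 (69.7%) had a normoxia term of 1, and the median hypoxia term was 7. Csn2 belonged to these 302 genes, with a hypoxia term reached or passed by 59 of the 433, itself included (13.6%). Csn1s2a did not, and 13 of the 433, itself included, had a hypoxia term at least as large as its own. By deposited log2 fold change Csn1s2a ranked 3 and Csn2 ranked 6 among the 433, Csn2 in a tie with 1 other gene. Among the 99 genes classed as protein-coding, a class that leaves out immunoglobulin genes, they ranked 1 and 2.

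Only 9 genes were listed in the ovary at a log2 fold change of at least 4, and both protein-coding genes among them were the caseins. In 3 of the 9, Csn1s2a among them, the normoxia term was above 1. The protein-coding genes next below the caseins were Ccdc7b at 3.84, Gm14308 at 3.79 and Tmem239 at 3.74 in the authors' deposited table. They had terms of 15 to 1, 29 to 2 and 14 to 1, hypoxia first. None of these 3 genes had terms as large as those of Csn1s2a.

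By the pair of terms, with the summed absolute log2 differences of both terms as the measure, the genes nearest to Csn1s2a over the 2 ovary libraries were the olfactory receptor gene Olfr1030, Gm43123 and the pseudogene Gm7551. Olfr1030 had terms of 47 to 5 and stood 1.39 away, Gm43123 had 77 to 3 and stood 1.41 away, and Gm7551 had 37 to 5 and stood 1.73 away. Csn2 had exact company, since the antisense transcript 4930551O13Rik had the same terms of 18 to 1. The noncoding transcript A230059L01Rik and the pseudogene Gm45893 followed, both at 17 to 1 and 0.08 away. In this measure Csn1s2a had no close match, while Csn2 lay among genes of similar low terms.

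What absence from the list means follows from the threshold. The smallest positive value listed in the ovary was 2.01. A ratio of 5 to 1 gives 2.25 and was listed, whereas 4 to 1 gives 1.93 and falls short. Had Csn1s1, Csn1s2b or Csn3 had 0 reads in the normoxia ovary, it could have had at most 3 reads in the hypoxia ovary and stayed unlisted. With more reads in normoxia, any difference below the threshold would also leave it out. In the uterus the same limit of 3 reads applied.

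The casein genes form a cluster on chromosome 5. On GRCm38, the assembly also called mm10, the 5 genes span 266 kb in the order Csn1s1, Csn2, Csn1s2a, Csn1s2b and Csn3. Csn2 lies at chr5:87692624-87699630 on the minus strand and Csn1s2a at chr5:87774567-87788797 on the plus strand, 74.9 kb apart. Csn1s1, at chr5:87666208-87682578, is 10045 bases from Csn2, and Csn1s2b, at chr5:87808082-87824426, is 19.3 kb from Csn1s2a. Csn3 lies at chr5:87925579-87932665. The nearest casein neighbours of both listed genes were thus unlisted.

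No annotated gene overlaps Csn2 or Csn1s2a on either strand. No stretch of 50 bases in their protein-coding transcripts occurs in a transcript of another gene. In Csn2, 5 such stretches in transcripts that are not protein-coding occur in Chka, Ndufs1 or Vmn2r76, none of which was listed in the ovary (0 of 3). Csn1s2a shared no such stretch with another gene, Csn1s2b included. Only exact matches were sought, so whether reads of the paired alpha-S2 genes were told apart was not tested. The counting options of the authors are not stated in these sources.

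Within 1 megabase of the cluster, 4 of 90 annotated genes were listed in the ovary (4.44%), against 1.54% of all annotated genes. The 4 include the 2 caseins, which were chosen because they are listed and so raise the 4.44%. The other 2 listed genes were sulfotransferase genes on the Csn1s1 side. Sult1d1, whose enzyme sulfates catecholamines, lies 97.2 kb from the cluster. Its hypoxia term was 7 and its normoxia term 1, and the authors' deposited table gave it 2.74. Sult1e1, whose enzyme inactivates estrogens by sulfation, lies 74.6 kb from it. Its hypoxia term was 1 and its normoxia term 4, and the authors' deposited table gave it -2.07. On the smallest counts that match, the sulfotransferase values rested on 6 reads or fewer per library. They had opposite signs. The cluster from Csn1s1 to Csn3, both included, holds 14 annotated genes, 7 of them protein-coding, and Csn2 and Csn1s2a were the 2 that were listed. Odam and Prr27, phosphoprotein-related genes between Csn1s2b and Csn3, were not listed.

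The uterus list held 3 of the same 90 genes, none within the cluster (0 of 14). Of all annotated genes, 1.63% were listed in the uterus, so a count of 0 in 14 is near the background. Jchain, the immunoglobulin joining chain gene, had a hypoxia term of 1092 and a normoxia term of 251 and lies 587 kb from the cluster. Ugt2b34, a glucuronosyltransferase gene, had 2.25, and the serine protease gene Tmprss11b had -3.12, both in the authors' deposited table.

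**Figure D2:**
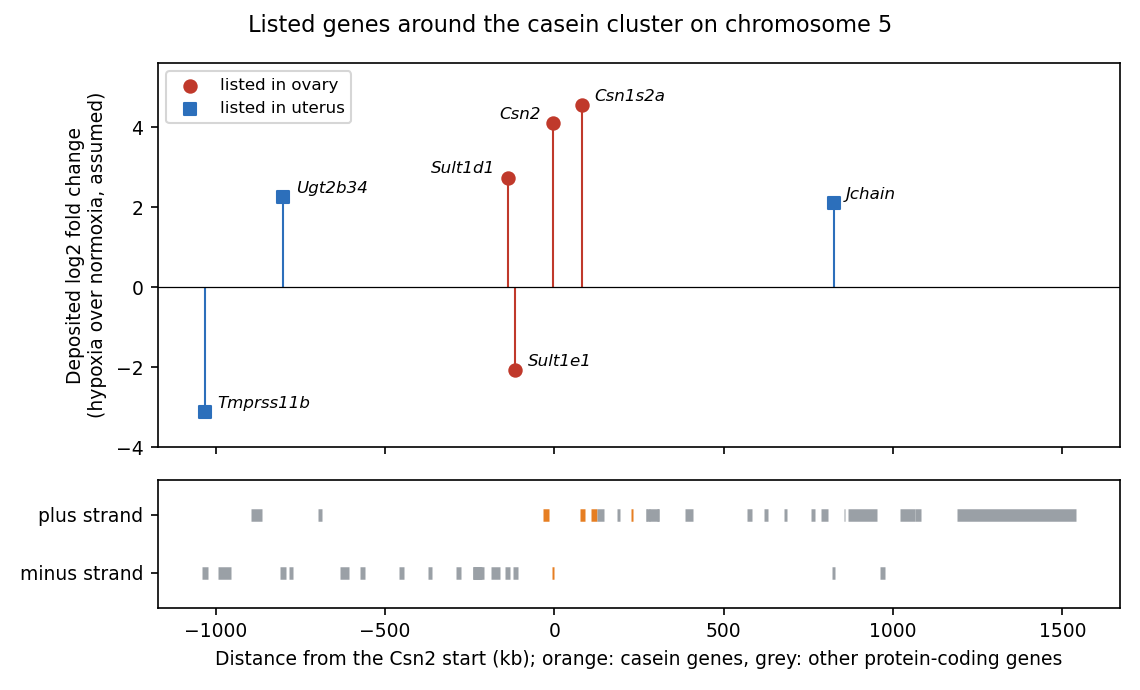
Upper panel: deposited log2 fold change (vertical axis) of the listed genes within 1 megabase of the casein cluster, by distance from the Csn2 start in kb (horizontal axis), for ovary (red circles) and uterus (blue squares). Lower panel: protein-coding genes by strand, with the 5 caseins in orange. Csn1s2a at 4.55 and Csn2 at 4.10 are ovary points inside the cluster, and the uterus points lie outside it.

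The start regions of the caseins are shown because STAT5 acts on casein genes through sites of the form TTCNNNGAA. RefSeq start regions on GRCm38.p6 were at hand for 3 of the 5 genes. The stretch from 120 bases before the start through the first 30 bases after it is given 5′ to 3′ on the gene's strand, with matches to TTCNNNGAA in capitals. The stretches are chr5:87774330-87774479 (plus strand) for Csn1s2a, chr5:87699396-87699545 (minus strand) for Csn2 and chr5:87666088-87666237 (plus strand) for Csn1s1.
Csn1s2a: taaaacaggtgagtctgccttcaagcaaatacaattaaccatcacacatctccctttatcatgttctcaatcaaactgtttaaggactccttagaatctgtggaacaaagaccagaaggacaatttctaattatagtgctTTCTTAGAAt
Csn2: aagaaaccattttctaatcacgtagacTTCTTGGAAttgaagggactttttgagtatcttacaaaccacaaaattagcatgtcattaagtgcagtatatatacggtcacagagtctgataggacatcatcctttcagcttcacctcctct
Csn1s1: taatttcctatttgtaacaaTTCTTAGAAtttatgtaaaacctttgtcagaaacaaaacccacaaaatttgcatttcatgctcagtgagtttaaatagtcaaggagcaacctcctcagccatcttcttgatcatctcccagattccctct

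Each of the 3 full RefSeq windows held TTCNNNGAA once (both strands, on which the motif reads the same). Of 32851 such windows of all genes, 8.30% held it. Csn2 had the match TTCTTGGAA, beginning 93 bases before its RefSeq start. The GENCODE gene model of Csn2 starts farther upstream, and from there the match lies inside the gene. Csn1s1 had TTCTTAGAA, beginning 100 bases before its own. Csn1s2a also had TTCTTAGAA, at base 21 after its RefSeq start. The GENCODE start of Csn1s2a lies 117 bases farther downstream, and from there the match begins 97 bases upstream. The motif did not separate the listed caseins from Csn1s1, which was not listed and had the same 9 letters as Csn1s2a.

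Core motifs of the low-oxygen response factors, ACGTG and GCGTG, were sought on both strands in the same windows. Csn2 held ACGTG once, read on the opposite strand 102 bases before the start, while Csn1s2a and Csn1s1 held neither (0 matches). ACGTG occurred in 19.6% of all windows and GCGTG in 32.4%. The exact letters TATAAA were in none of the 3 casein windows (0 matches), against 13.6% of all windows. Other forms of this motif were not sought. The casein windows were poor in G and C, at 32.3% for Csn1s2a, 38.7% for Csn2 and 35.3% for Csn1s1, against a median of 52.7%.

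Of 20 genes for further milk proteins and the milk fat globule, among them Wap, Lalba and Glycam1, 0 were listed in the ovary, where 1.54% of all annotated genes were listed, so a count of 0 in a list of this size is near the background. Of 12 other secretory calcium-binding phosphoproteins, the wider family of the caseins, 0 were listed. In the uterus 3 of the 20 milk genes were listed, where 1.63% of all annotated genes were listed. Ltf, which encodes lactoferrin, had a hypoxia term of 16403 and a normoxia term of 1740, and Wfdc18, of the whey acidic protein family, had 19 and 3. Their log2 fold changes were 3.23 and 2.66 per the authors' deposited table. Btn1a1, which encodes the milk fat globule protein butyrophilin, had a hypoxia term of 1 and a normoxia term of 10, and -3.33 per the authors' deposited table. The milk genes listed in the uterus had both signs.

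Of 23 genes of prolactin receptor signalling, including Prlr, Jak2, Stat5a, Stat5b, Elf5 and the feedback inhibitors Cish and Socs2, 0 were listed in either tissue. Of 18 genes linked to prolactin action in the corpus luteum, 1 was listed in the ovary. This was the aromatase gene Cyp19a1, with 207 and 1700 as its hypoxia and normoxia terms and -3.11 in the authors' deposited table. Lhcgr, Akr1c18, Star and Hsd3b1 were not listed. Of 19 low-oxygen response genes, 0 were listed in either tissue. Of all annotated genes, 1.54% were listed in the ovary and 1.63% in the uterus. Counts of 0 in lists of 23 and 19 genes are therefore near the background. A missing gene can still have differed by less than the threshold.

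Markers of tissues that could reach an ovary sample were counted beside the caseins. Of 19 mammary luminal epithelium markers, the cells that make casein in milk, 0 were listed in the ovary, and 1, Wfdc18, in the uterus. With 1.54% of all annotated genes listed in the ovary, a count of 0 in 19 is near the background. The share listed in the uterus was 1.63%. Of 10 mammary myoepithelium and basal markers, 2 were listed, both lower. Krt14 had terms of 80 to 701 and -3.20, and Krt5 had terms of 87 to 548 and -2.73, both in the authors' deposited table. Their summed reads were 165 in the hypoxia ovary and 1247 in the normoxia ovary, the opposite direction to the caseins. These keratins are also made by skin and other layered epithelia. Levels of the unlisted markers are not in the lists, so none can be called at 0.

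Of 11 skin and squamous markers, 4 were listed in the ovary, all lower, with summed reads of 24 in hypoxia and 172 in normoxia. Of all annotated genes, 1.54% were listed in the ovary, and the marker lists were chosen with earlier results of these data known. Per the authors' deposited table the 4 were Krt1 at -2.51, Krt16 at -3.39, Krt6a at -4.07 and the protease inhibitor gene Serpinb5 at -3.88. The median of the 4 was -3.64, against a median of -2.39 over all genes listed as lower in the ovary, both of deposited values. With the 3 genes of 0 hypoxia reads set at their limit of 3 counts, the median of the 4 was -2.29. The median over all lower genes was not recomputed with that limit, so it is no match for this value. Of 12 fat cell markers 1 was listed, the leptin gene Lep, at -2.66 per the authors' deposited table, with terms of 1 and 6. Of 12 B and plasma cell markers 1 was listed, the immunoglobulin gene Ighg3, at 4.59 per the authors' deposited table, with terms of 329 and 13. Immunoglobulin and keratin genes belong to families of similar genes, and sequence shared within these families was not examined here. Ighg3 was near Csn1s2a in log2 fold change, at 4.59 against 4.55, but had larger terms, 329 and 13 against 123 and 5. The listed basal, skin and fat markers were lower in hypoxia. The part of these other tissues in the casein values was not tested. In pooled tissue, more cells of a kind and more RNA per cell cannot be told apart.

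**Figure D3:**
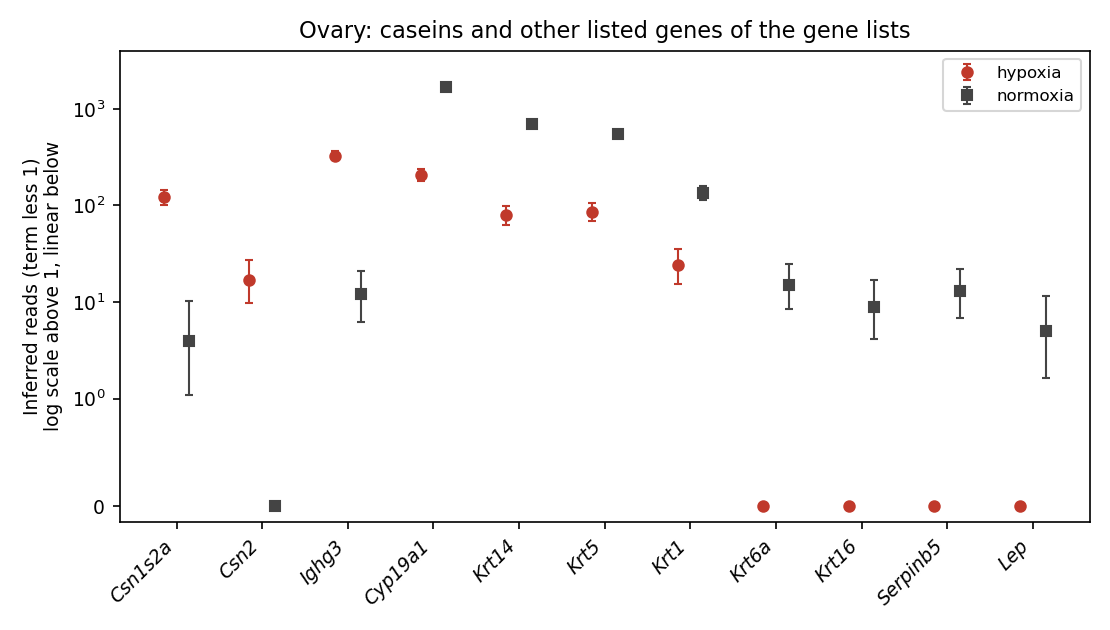
Inferred reads (terms less 1; vertical axis, log above 1 and linear below) in the hypoxia (red circles) and normoxia (dark squares) ovary libraries for the caseins and the other listed genes of the gene lists. Bars are exact 95% Poisson intervals, drawn for counts above 0. Csn1s2a (122 and 4 reads), Csn2 (17 and 0) and Ighg3 are higher in hypoxia, and the other 8 genes are lower.

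The size of the Csn2 value, more than that of Csn1s2a, depended on the number added to the reads. With 5 added in place of 1, Csn1s2a had a log2 fold change of 3.75 and ranked 2 among the 433 higher genes. Csn2 then had 2.07 and ranked 21.

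**Figure D4:**
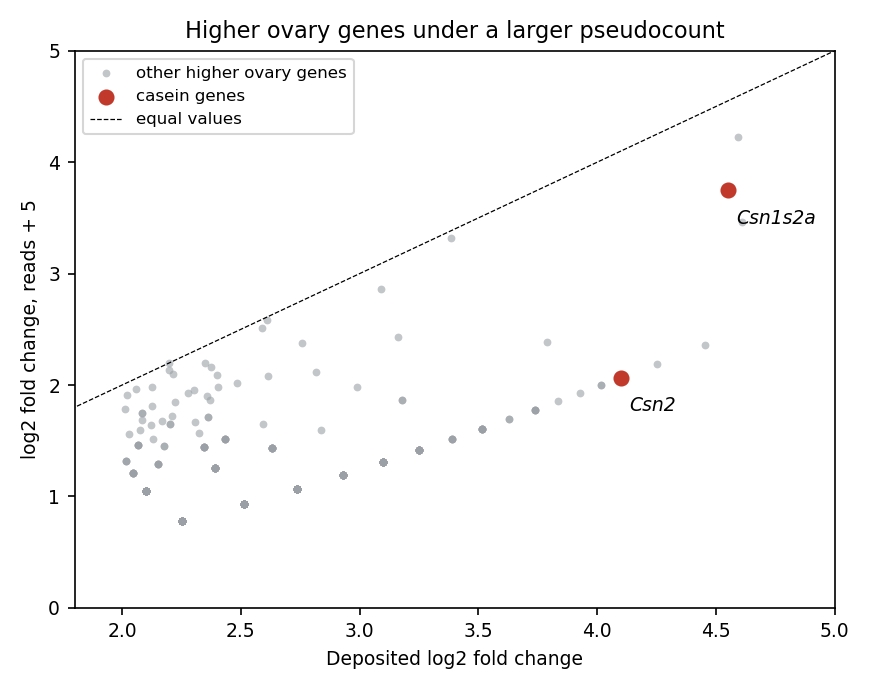
Log2 fold change with 5 added to the reads (vertical axis) against the deposited log2 fold change (horizontal axis) for the 433 genes listed as higher in the ovary, with 1 point per gene and the dashed line at equal values. Csn1s2a stays near the top at 3.75, while Csn2 drops to 2.07, into the band of genes with a normoxia term of 1.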

How the data were processed

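Ovary and uterus RNA was sequenced as 1 pooled library per group. HISAT2 2.2.1, HTSeq 0.9.1, FastQC 0.73 and DESeq2 2.11.40.7 appear in the submitters' processing notes, as does the build mm10. For each tissue the authors deposited log2 fold changes, per the file headers, kept at an absolute value of at least 2. These sources give no levels, p-values or depth.

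The shared factor of each list was taken from its commonest negative value, read as a ratio of 1 to 4. Whole-number terms were then sought by continued fractions at a relative tolerance of 5e-14, which every listed gene met. The recovery was tested on simulated data. Intervals are at 95%. The added counts, thresholds and motifs are given where used. Genes were placed by symbol and chromosome on GENCODE M21, where all 5 caseins matched, and 1 of 12 phosphoprotein symbols (Fdcsp) did not. Start regions are RefSeq's, on GRCm38.p6.

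The members and the 11 gene lists were chosen with earlier results of these data known. Named genes are the caseins, the listed members of the lists (in the uterus, those of the casein and milk lists), the listed genes within 1 megabase of the cluster, the 3 protein-coding genes next to each casein by value and the 3 nearest by terms. Unlisted genes named from the lists were picked as examples. Software was SciPy 1.17.1, NumPy 2.4.6, pandas 2.3.3 and Matplotlib 3.10.9 under Python 3.11.15.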

Additional observations from a re-analysis of the deposited data

How the results depend on the processing

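With 5 added to the terms, Csn2 had 1.87, under the threshold of 2, and ranked 27 among the higher ovary genes. With 5 added to the reads, an alternative chosen after seeing the data, it ranked 21. Csn1s2a had 3.61 and 3.75 under these settings, inside its counting interval. Among genes classed as protein-coding, which leaves out immunoglobulin genes, Csn1s2a ranked 1 and Csn2 ranked 2. The direction of both caseins could not change under the alternatives, given the deposited values. On the deposited values both caseins also passed thresholds of 3 and 4. With 5 added to the terms or the reads, Csn1s2a passed 3 but not 4, and Csn2 passed neither. No paired analysis was possible because each group was 1 pooled library. The normoxia count of 0 for Csn2 fixes no fold.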
